A study of Mus musculus with 380 samples.

Results

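The proteasome is the multi-subunit protease that degrades ubiquitin-tagged proteins, and its genes were followed here in T cells from mouse melanomas. Every gene of the table whose symbol begins with Psma, Psmb, Psmc, Psmd, Psme, Psmf or Psmg and a number was taken, which gave 49 of 23420 genes. They comprised 7 alpha subunits and 4 noncatalytic beta subunits of the 20S core, 3 standard and 3 immunoproteasome catalytic subunits, and the 2 subunits of the PA28 activator. A further 6 encode ATPases and 11 encode non-ATPase subunits of the 19S cap, 7 encode assembly chaperones, and 3 encode other regulators. The remaining genes were Psma8 and Psmb11, the core subunits of testis and thymic cortex, and Psmc3ip, which shares the prefix but encodes a recombination factor and no subunit.

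Peptide bonds are cut inside the 20S core by the subunits encoded by Psmb5, Psmb6 and Psmb7. Interferon-gamma induces Psmb8, Psmb9 and Psmb10, whose products take the places of those of Psmb5, Psmb6 and Psmb7 in newly assembled cores and so form the immunoproteasome. The PA28 activator (Psme1 and Psme2) is induced by the same cytokine and caps the core in place of the 19S cap, which recognises and unfolds ubiquitinated proteins. Immunoproteasomes are the main form in lymphocytes and favour peptides that fit MHC class I molecules.

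T cells were taken from B16F10 tumours, a melanoma line that grows in C57BL/6 mice, and the labels give no other treatment. The hosts were wild type (WT) or labelled IL27raKO, a knockout of the gene for a receptor chain of the cytokine interleukin-27. Smart-seq2, a plate-based protocol that amplifies the messenger RNA of single cells, was run on 4 plates: CD8 cells of WT hosts, CD8 cells of KO-labelled hosts, CD4 cells of WT hosts and CD4 cells of KO-labelled hosts. Each plate held 94 single cells and 1 population well, a single library from many cells. Neither age nor sex is labelled, 1 mouse code stands for each genotype, and the labels do not describe the knockout allele. The treatment label speaks of CD8+ cells only, so the CD4 plates are known as such from their titles, and the WT CD4 titles carry a different plate code (p2) from the other plates (p1). With 1 plate per group there was no test between groups: cells of a plate are not replicates, genotype cannot be told apart from plate or animal, and p-values are not given.

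A gene counted as detected above an FPKM of 1. FPKM is the number of fragments per kilobase of transcript relative to the size of the library, further scaled across libraries by the submitters, so levels of different genes can be compared. Cells with at least 1000 detected genes were kept, which left 72 and 80 cells on the WT and KO-labelled CD8 plates and 79 and 73 on the WT and KO-labelled CD4 plates. Values below follow this plate order unless a plate is named. The 72 cells left out had a median of 1 proteasome gene detected.

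The plates differed before any proteasome gene was considered. Kept cells had a median of 3168, 2508, 2045 and 2218 detected genes, and the wells had 10450 to 10946. Cells with at least 3 of 10 cell-cycle genes detected, called cycling below, made up 56.9%, 31.3%, 40.5% and 23.3% of kept cells. At least 1 CD3 gene was detected in 97.3% to 100% of the kept cells of a plate, Cd8a in 84.7% and 90% of cells on the CD8 plates, and Cd4 in 89.9% and 84.9% on the CD4 plates. Il27ra was detected in 65.3%, 61.3%, 43.04% and 47.9% of cells, and its level was lower on the KO-labelled plate of each lineage (111.4, 68.3, 110.5 and 82.5 FPKM in cells, 157.02, 85.3, 243.4 and 72.7 FPKM in wells). The transcript was thus lower but still present, which leaves the knockout label unchecked. Summed FPKM of the dendritic markers Flt3, Itgax, Xcr1, H2-Aa and Cd74 in the wells was 4262, 1896, 152.5 and 3118. That of the macrophage and monocyte markers found in the table, 4 of 5, was 1923, 881, 48.4 and 3320. In the median kept cell both sums were under 2 FPKM, and 3, 1, 1 and 3 kept cells had at least 3 markers of 1 of these types. Well values below can therefore include RNA of other cells, and their part in the results was not tested.

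Psmb8, the immunoproteasome counterpart of Psmb5, was the most abundant proteasome transcript on every plate, both averaged over cells and in the well. Its mean over kept cells was 1420 and 1207 FPKM on the WT and KO-labelled CD8 plates, and 1159 and 1623 FPKM on the corresponding CD4 plates. The wells gave 2777, 1951, 2560 and 3450 FPKM. In both views the KO-labelled CD4 plate was highest and, among CD8 plates, the KO-labelled one was lower. Psmb8 was detected in 87.5% of cells (exact 95% interval 77.6% to 94.1%), 96.3% (89.4% to 99.2%), 87.3% (77.95% to 93.8%) and 89.04% (79.5% to 95.1%), and these intervals, which cover counting error only, overlap.

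The other immunoproteasome genes were less abundant. Psmb9, the counterpart of Psmb6, lies beside Psmb8 in the MHC region (GRCm38 chr17:34181987-34187764 on the minus strand, against chr17:34197721-34201454 on the plus strand for Psmb8). Its mean was 443, 217.9, 288.6 and 330 FPKM in cells and 924, 566, 642 and 906 FPKM in wells, lowest on the KO-labelled CD8 plate in both views. It was detected in 72.2%, 56.3%, 68.4% and 72.6% of cells. Exons of Psmb9 overlap those of the peptide transporter gene Tap1 on the opposite strand, and exons of Psmb8 overlap the antisense gene Gm20496, and Smart-seq2 does not mark strand, so reads of these overlaps cannot be told apart. Psmb10, the counterpart of Psmb7, was the lowest of the 3 in both views, at 209.6, 217.1, 201.8 and 233.7 FPKM in cells and 452, 333.2, 466 and 536 FPKM in wells. Its mean in cells spanned a narrow range across the plates, and it was detected in 65.3%, 57.5%, 56.96% and 53.4% of cells.

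The PA28 genes ranked next to Psmb8. Psme1, which encodes PA28 alpha, had a mean of 688, 728, 649 and 778 FPKM in cells and 1273, 1023, 1424 and 1637 FPKM in wells. Psme2, which encodes PA28 beta, had 651, 460, 500 and 611 FPKM in cells and 1413, 980, 1323 and 1524 FPKM in wells. In the wells both genes were highest on the KO-labelled CD4 plate and lowest on the KO-labelled CD8 plate. The gene Psme2b is a near-identical copy of Psme2, and how the authors' counting shared reads between them was not examined.

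The standard catalytic subunits come next. Psmb5, the chymotrypsin-like subunit, was detected in 59.7%, 50%, 36.7% and 45.2% of cells, with means of 375.8, 245.2, 183.8 and 261.5 FPKM in cells and 879, 415, 572 and 656 FPKM in wells. Psmb6, the caspase-like subunit, was detected in 63.9%, 56.3%, 44.3% and 60.3% of cells, with means of 334.1, 206.9, 231.1 and 269.4 FPKM and 694, 452, 631 and 523 FPKM in wells. Both were highest on the WT CD8 plate in cells and in wells. Psmb7, the trypsin-like subunit, was the least abundant of the 3 in both views, at 151.1, 65.1, 130.4 and 74.1 FPKM in cells and 364.1, 219.9, 184.6 and 309.8 FPKM in wells. It was detected in 52.8%, 25.0%, 34.2% and 30.1% of cells. Its exons overlap those of Nek6 on the opposite strand, and processed pseudogenes of Psmb5, Psmb6 and Psmb7 exist, to which the same caveat on shared reads applies.

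**Figure D1:**
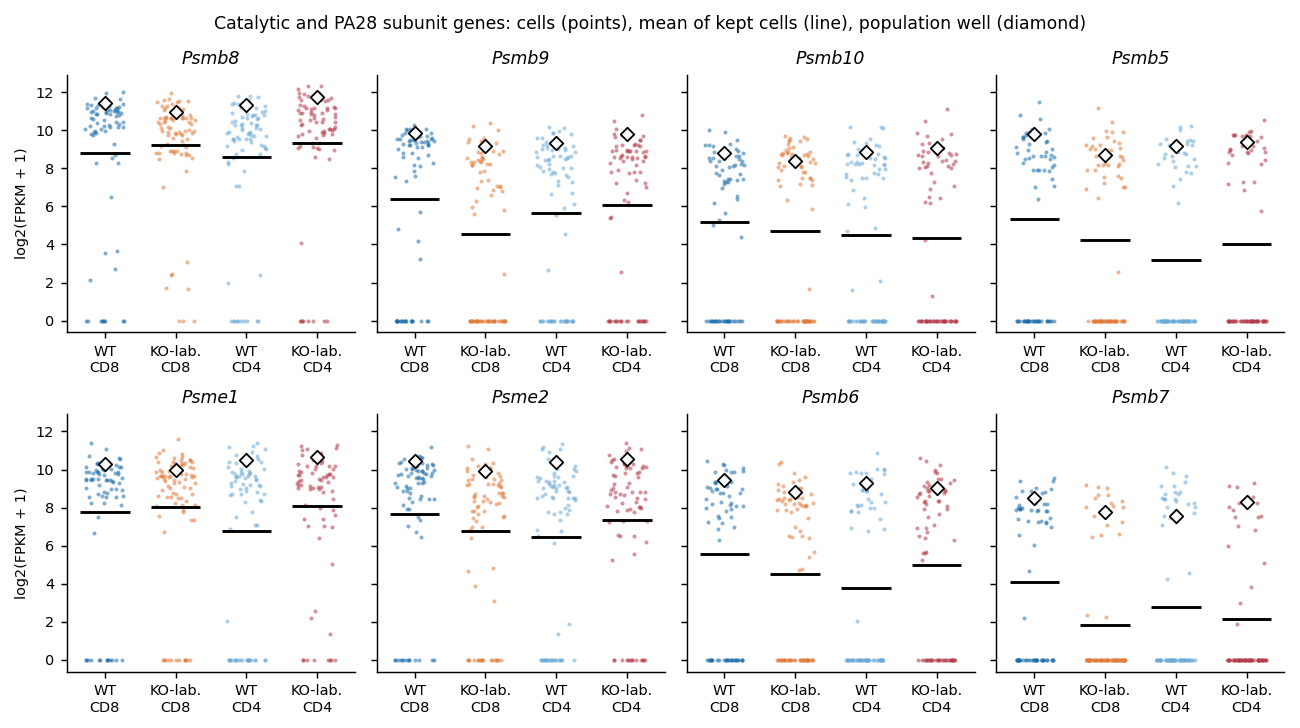
Level of the 5 immunoproteasome and PA28 genes and the 3 standard catalytic genes, as log2(FPKM + 1), in each kept cell (points), with the mean over kept cells (line) and the population well of the plate (diamond). Psmb8 sits near the top in most cells of all plates, while Psmb7 is not detected in most cells of the KO-labelled CD8 plate and both CD4 plates.

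The remaining core, cap and chaperone genes formed steps in the wells, read per length. The median well level was 735, 599, 750 and 676 FPKM over the 7 alpha subunits, and 878, 674, 732 and 878 FPKM over the 4 noncatalytic beta subunits. The 17 subunits of the 19S cap lay lower, at medians of 309.8, 263.5, 317.1 and 294.7 FPKM. Within the cap the spread was 4.17-fold to 6.44-fold between the highest and lowest gene of a well, with Psmd3, a scaffold subunit, the lowest in all 4 wells. The 7 assembly chaperones had medians of 67.9, 53.7, 70.6 and 67.5 FPKM. Psme4, which encodes the PA200 activator, was at 8.95 to 12.2 FPKM and Psme3, which encodes PA28 gamma, at 12.1 to 25.1 FPKM. Across 47 genes the order in cells and in the well of the same plate was alike, with Spearman's rho of 0.985, 0.968, 0.953 and 0.959, a description across genes that share the libraries. All 49 genes together made up 1.37%, 1.23%, 1.25% and 1.34% of summed FPKM in kept cells and 1.55%, 1.23%, 1.38% and 1.44% in the wells.

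**Figure D2:**
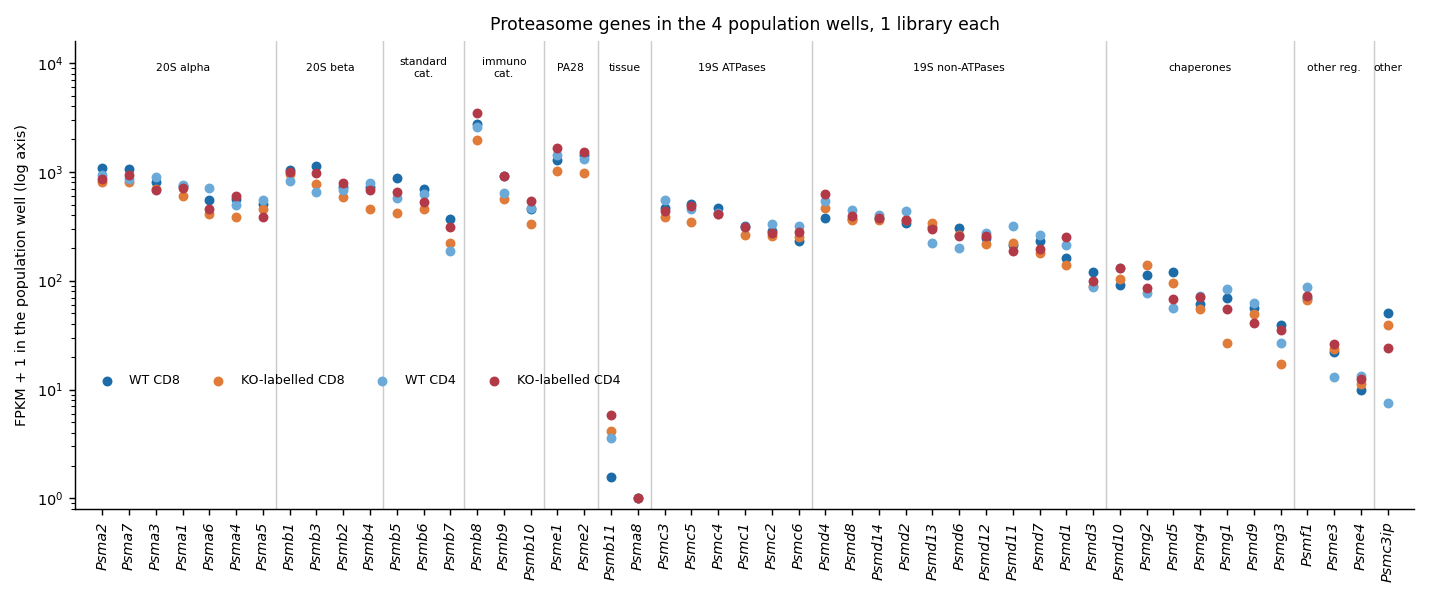
FPKM + 1 on a log axis of all 49 genes in the 4 population wells, 1 point per library, grouped by role. Core subunits, cap subunits and chaperones form descending steps in every well, with Psmb8 above all others.

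The core subunits of other tissues set the background. Psma8 was listed at 0 in the 4 wells and in all kept cells but 1 KO-labelled CD8 cell, so it was the 1 gene of the 49 that was not detected in at least 10% of the kept cells of any plate. Psmb11 was above 0 in 81.9% of all kept cells, but at a median of 1.05 FPKM and a highest value of 5.58 FPKM, with 1 cell above 5 FPKM. It nevertheless passed FPKM 1 in 50%, 47.5%, 45.6% and 64.4% of cells. Detection at FPKM 1 is thus no sign of expression for a gene at such levels, whereas the catalytic genes had medians of 240.7 to 1711 FPKM among the cells that had them. Raising the detection threshold to 5 FPKM moved the share of cells with Psmb8 to 86.1%, 91.3%, 84.8% and 89.04%.

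Immunoproteasome transcripts outnumbered standard ones on every plate. The share of Psmb8, Psmb9 and Psmb10 in the summed FPKM of the 6 catalytic genes was 70.7% and 76.05% on the WT and KO-labelled CD8 plates, and 75.1% and 78.3% on those of CD4 cells. The wells gave 68.2%, 72.4%, 72.6% and 76.7%. WT CD8 was lowest and KO-labelled CD4 highest in both views, and the KO-labelled plate lay above the WT plate in both lineages. Without cycling cells the shares were 78.9%, 77.2%, 77.1% and 78.8%, so the CD8 plates then stood in the opposite order and the 4 plates lay within a narrow range. The part of cycling cells in the plate order was not tested further.

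The pairs did not behave as one. Psmb8 made up 79.1%, 83.1%, 86.3% and 86.1% of the sum of Psmb8 and Psmb5 in cells and 75.96%, 82.5%, 81.7% and 84.02% in wells. Psmb9 was close to parity with Psmb6, at 57.03%, 51.3%, 55.5% and 55.1% in cells and 57.1%, 55.6%, 50.5% and 63.4% in wells. Psmb10 took 58.1%, 76.9%, 60.7% and 75.9% of its pair with Psmb7 in cells, with both KO-labelled plates above both WT plates. The wells gave 55.4%, 60.2%, 71.6% and 63.4% for this pair, in which the CD4 plates stood in the opposite order. Without Psmb8 and Psmb5, the immunoproteasome share was 57.4%, 61.5%, 57.6% and 62.2% in cells and 56.5%, 57.2%, 57.6% and 63.4% in wells.

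**Figure D3:**
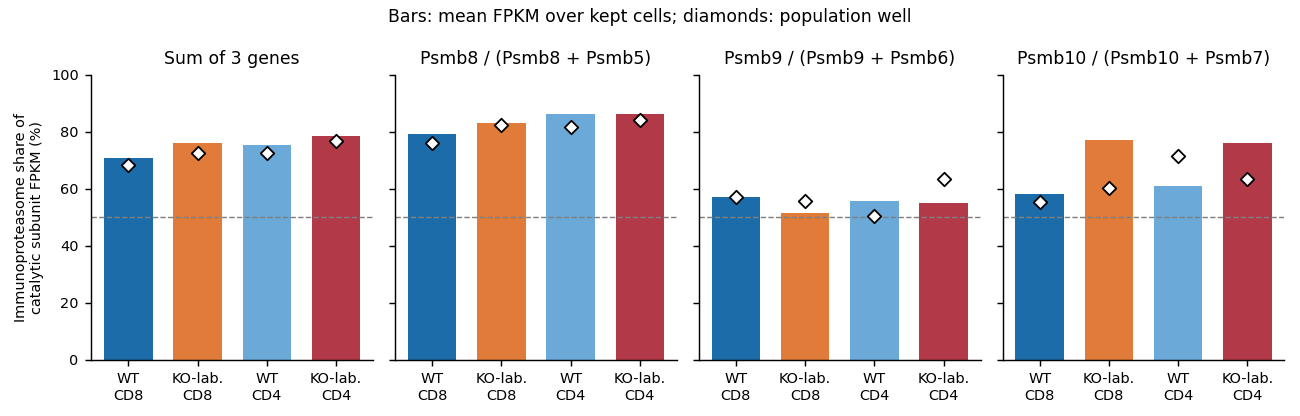
Immunoproteasome share of catalytic subunit FPKM in percent by plate, for the sum of 3 genes and for each pair, with bars from the mean FPKM over kept cells and diamonds from the well. All values lie above the dashed line at 50, and the Psmb8 pair is the highest on every plate.

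Within single cells, both forms were usually present together. At least 1 immunoproteasome and at least 1 standard catalytic gene were detected in 57 of 72, 61 of 80, 56 of 79 and 50 of 73 kept cells. Immunoproteasome genes alone were detected in 7, 17, 20 and 18 cells. The reverse, standard genes alone, was seen in 0, 0, 2 and 5 cells, where 0 allows a share of up to 4.17% and 3.75% of the cells of the CD8 plates, taken as 3 cells of each total rather than from the exact interval. All 3 immunoproteasome genes were detected in 58.3% (exact interval 46.1% to 69.8%), 33.8% (23.6% to 45.2%), 37.97% (27.3% to 49.6%) and 41.1% (29.7% to 53.2%) of cells. All 3 standard genes were detected in 38.9% (27.6% to 51.1%), 18.8% (10.9% to 29.03%), 8.86% (3.64% to 17.4%) and 13.7% (6.77% to 23.8%). The WT CD8 plate, whose cells had the most detected genes, was highest for both.

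How many proteasome genes a cell showed went with how many genes it showed at all. The median was 28.5, 21, 15 and 20 of 49 genes in kept cells, against 47 or 48 in the wells. Spearman's rho between both numbers over the cells of a plate was 0.971, 0.838, 0.846 and 0.865, a description in which the proteasome genes are themselves part of the total. In cells with 4000 or more detected genes the medians were 40, 39.5, 42 and 43, over 26, 6, 4 and 5 cells. In these cells the immunoproteasome share was 65.2%, 66.5%, 65.2% and 67.8%. The plates thus gave similar shares among their cells of most detected genes, with few cells on 3 plates. Their shares lay further apart in kept cells with fewer genes. Below 2000 genes they were 90.2%, 88.7%, 76.3% and 75.3%. From 2000 to below 3000 genes they ran from 75.1% (WT CD4) to 83.2% (KO-labelled CD4). From 3000 to below 4000 genes they ran from 70.5% (KO-labelled CD8, 12 cells) to 81.7% (WT CD4, 5 cells).

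The cells of fewest detected genes differed between plates. At fewer than 2000 genes, 13 WT CD8 cells had a median of 4 proteasome genes and Psmb8 in 30.8% of them. On the other plates, in order, 14, 38 and 25 cells of that range had medians of 11, 11.5 and 14 proteasome genes and Psmb8 in 78.6%, 76.3% and 76%. From 2000 genes upward, Psmb8 was detected in every CD8 cell.

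Cycling cells had more proteasome genes detected on all 4 plates. Cycling WT CD8 cells had a median of 4282 detected genes and 38 proteasome genes, against 2360 and 17 in the others. Mean FPKM of Psmb5 was 547 in cycling and 148.8 in the other WT CD8 cells, and that of Psmb8 was 1812 and 902. In KO-labelled CD8 cells the means were 300.7 and 220 FPKM for Psmb5 and 1487 and 1080 FPKM for Psmb8. The median number of proteasome genes was 25 and 20 in cycling and other KO-labelled CD8 cells. It was 17 and 15 in WT CD4 cells and 26 and 18.5 in KO-labelled CD4 cells. On the CD4 plates Psmb8 had 1143 and 1170 FPKM in cycling and other WT cells and 2049 and 1494 FPKM in KO-labelled ones. Psmb5 had 217.2 and 161.1 FPKM in WT and 303.4 and 248.8 FPKM in KO-labelled CD4 cells. The immunoproteasome share was lower in cycling cells on all 4 plates, at 68.1%, 74.3%, 72.5% and 77.2% against 78.9%, 77.2%, 77.1% and 78.8% in the others. Genes detected and cycling moved together, so their parts cannot be told apart here.

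**Figure D4:**
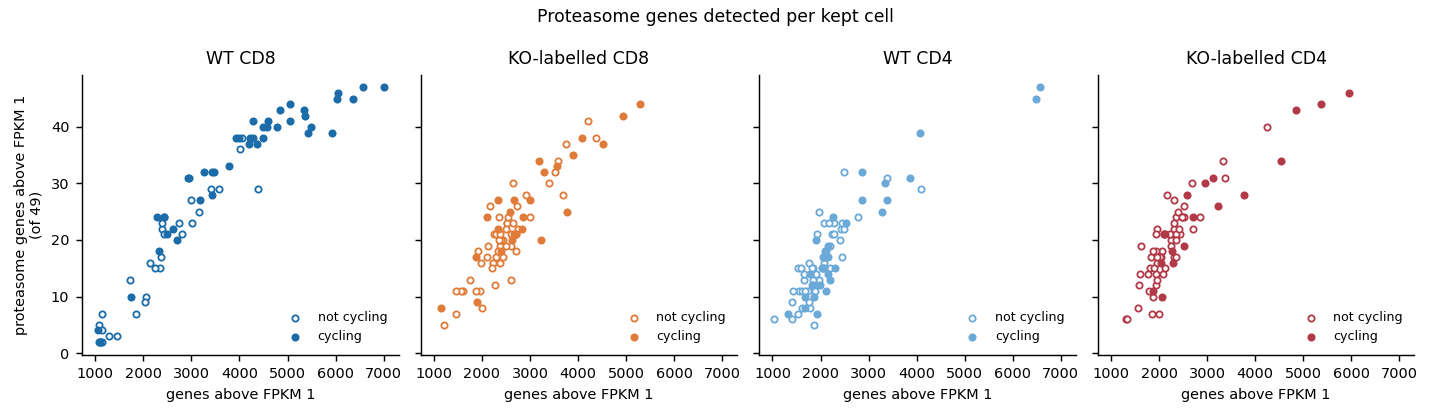
Number of the 49 proteasome genes above FPKM 1 in each kept cell against all genes above FPKM 1, with cycling cells filled. The points climb together on every plate, and WT CD8 has the most cells of 4000 or more genes, 26 of 72.

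The comparison of KO-labelled with WT CD8 cells sets 1 plate against another, and a loss of interleukin-27 signalling was not checked. A difference is the mean of log2(FPKM + 1) over kept cells of one plate minus that of the other, and a gene was measured if detected in at least 10% of the kept cells of 1 plate, which 48 of the 49 genes and 9081 genes in all were. In cells, 43 of 48 measured proteasome genes were lower on the KO-labelled plate, with a median of -0.82, against 75.7% of all genes lower and a median of -0.34. A difference of -1 or less was found for 16 of the 48, against 14.3% of all genes, and one of 1 or more for 0 of the 48, against 2.25% of all genes. In the wells the median difference was smaller, at -0.28 against 0.03 over all genes, and 38 of 48 were lower (47.2% of all genes). There, 3 were at -1 or less (10.5% of all genes) and 1 at 1 or more (12.9% of all genes). The 3 were Psmb5 and the assembly chaperones Psmg1 (-1.36) and Psmg3 (-1.21), and the 1 was Psmb11 (1.38), at 0.59 and 3.14 FPKM. These and the other genes named for a small count were named after their values were seen.

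Standard catalytic genes lay lowest of the core groups in the wells and near the lowest, the noncatalytic beta subunits, in cells. The 3 had a median of -1.10 in cells and -0.72 in wells, with Psmb5 at -1.10 and -1.08, Psmb6 at -1.04 and -0.62, and Psmb7 at -2.26 and -0.72. The 5 immunoproteasome and PA28 genes had medians of -0.44 in cells and -0.51 in wells. Among them, Psmb8 and Psme1 were higher in cells on this log scale, by 0.42 and 0.24, and lower in the wells, at -0.51 and -0.32. The mean FPKM of Psmb8 in cells was lower, however, at 0.85 of the WT value, and that of Psme1 was 1.06 of it. Psmb9 was at -1.86 and -0.71, Psmb10 at -0.44 and -0.44, and Psme2 at -0.88 and -0.53. In the wells, then, all 8 genes were lower under the KO label.

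The same holds for the rest of the core in the wells, where 7 of 7 alpha subunits (median -0.42) and 4 of 4 noncatalytic beta subunits (median -0.43) were lower, while 47.2% of all genes were. The 19S cap was lower for 12 of 17 genes, at a median of -0.18, and 4 of its 11 non-ATPase genes were higher. In cells the alpha subunits had a median of -0.60, the noncatalytic beta subunits -1.16 and the cap -0.92. The lowest of the other genes in cells were Psmb2, a noncatalytic beta subunit (-1.94), Psmd8, a non-ATPase cap subunit (-1.56), and Psma4, an alpha subunit (-1.48), which the wells gave at -0.31, -0.01 and -0.57. The highest were Psma2, an alpha subunit (0.11), Psmg2, a chaperone of alpha-ring assembly (0.10), and Psmc2, a cap ATPase (0.05). The wells gave these at -0.42, 0.32 and -0.15.

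Several of these differences in CD8 cells moved with genes detected or with cycling. With cells weighted to equal numbers of detected genes, the medians were 0.26 for the standard catalytic genes and 0.23 for the cap, while that of the immunoproteasome and PA28 genes stayed at -0.43, with Psmb9 at -1.05 and Psme2 at -0.87. Leaving out cycling cells left 55 KO-labelled and 31 WT cells. The medians were then 0.57 for the standard catalytic, 0.79 for the cap and 0.61 for the immunoproteasome and PA28 genes. All 3 medians thus lay higher on the KO-labelled plate. Among the catalytic and PA28 genes, Psmb7 (-0.66), Psmb9 (-0.31) and Psme2 (-0.08) stayed lower, and the others were higher. In cells with at least 2000 genes the 3 medians fell instead, to -1.87, -1.37 and -0.82 in the same order. Psmb8 was there at -0.78. Fewer cells of a type and less RNA per cell cannot be told apart in the wells.

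Among CD4 cells the same comparison gave the opposite direction in cells and little in the wells. On the KO-labelled plate 36 of 48 measured genes were higher, with a median of 0.47, against 58.8% of all genes higher and a median of 0.07. A difference of 1 or more was found for 9 of 48, against 4.56% of all genes, and one of -1 or less for 0 of 48, against 0.782% of all genes. In the wells 25 of 48 were higher (47.6% of all genes), with a median of 0.05 against -0.01 over all genes. There, 1 was at 1 or more (12.1% of all genes), Psmc3ip at 1.69, and 0 at -1 or less (10.9% of all genes). The titles of the CD4 plates also differ between p1 and p2, which cannot be told apart from genotype.

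All 5 immunoproteasome and PA28 genes were higher in the KO-labelled CD4 well, by 0.43 for Psmb8, 0.50 for Psmb9, and 0.20 each for Psmb10, Psme1 and Psme2. The means of log2(FPKM + 1) over cells gave 0.71, 0.44, -0.12, 1.30 and 0.93, so that Psmb10 was the exception on this scale. The mean FPKM of Psmb10 in cells was higher on the KO-labelled plate, at 1.16 of the WT value. The KO-labelled CD4 well also held more summed FPKM of the dendritic and macrophage markers than the WT CD4 well, 3118 against 152.5 and 3320 against 48.4. Over all 94 cells of each plate, with no filter on detected genes, the median of the 5 genes was -0.02.

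Standard catalytic genes were split in CD4. Psmb5 was at 0.82 in cells and 0.20 in wells, Psmb6 at 1.20 and -0.27, and Psmb7 at -0.63 and 0.74, which leaves Psmb5 as the 1 gene of the 3 with a single direction. The median of the 3 was 0.82, and -0.37 among cells with at least 2000 detected genes. The alpha subunits had a median of 0.58 in cells, with 7 of 7 higher, and -0.12 in wells, with 5 of 7 lower. The 19S cap had 0.64 in cells and -0.09 in wells. Among the other genes the highest in cells were Psmc5, a cap ATPase (1.77), Psmd14, the deubiquitinase of the cap (1.69), and Psma6, an alpha subunit (1.65), at 0.09, -0.09 and -0.65 in the wells. The lowest were Psmd8 (-0.86) and the chaperones Psmd5 (-0.37) and Psmd10 (-0.28), at -0.16, 0.30 and 0.01 in the wells.

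**Figure D5:**
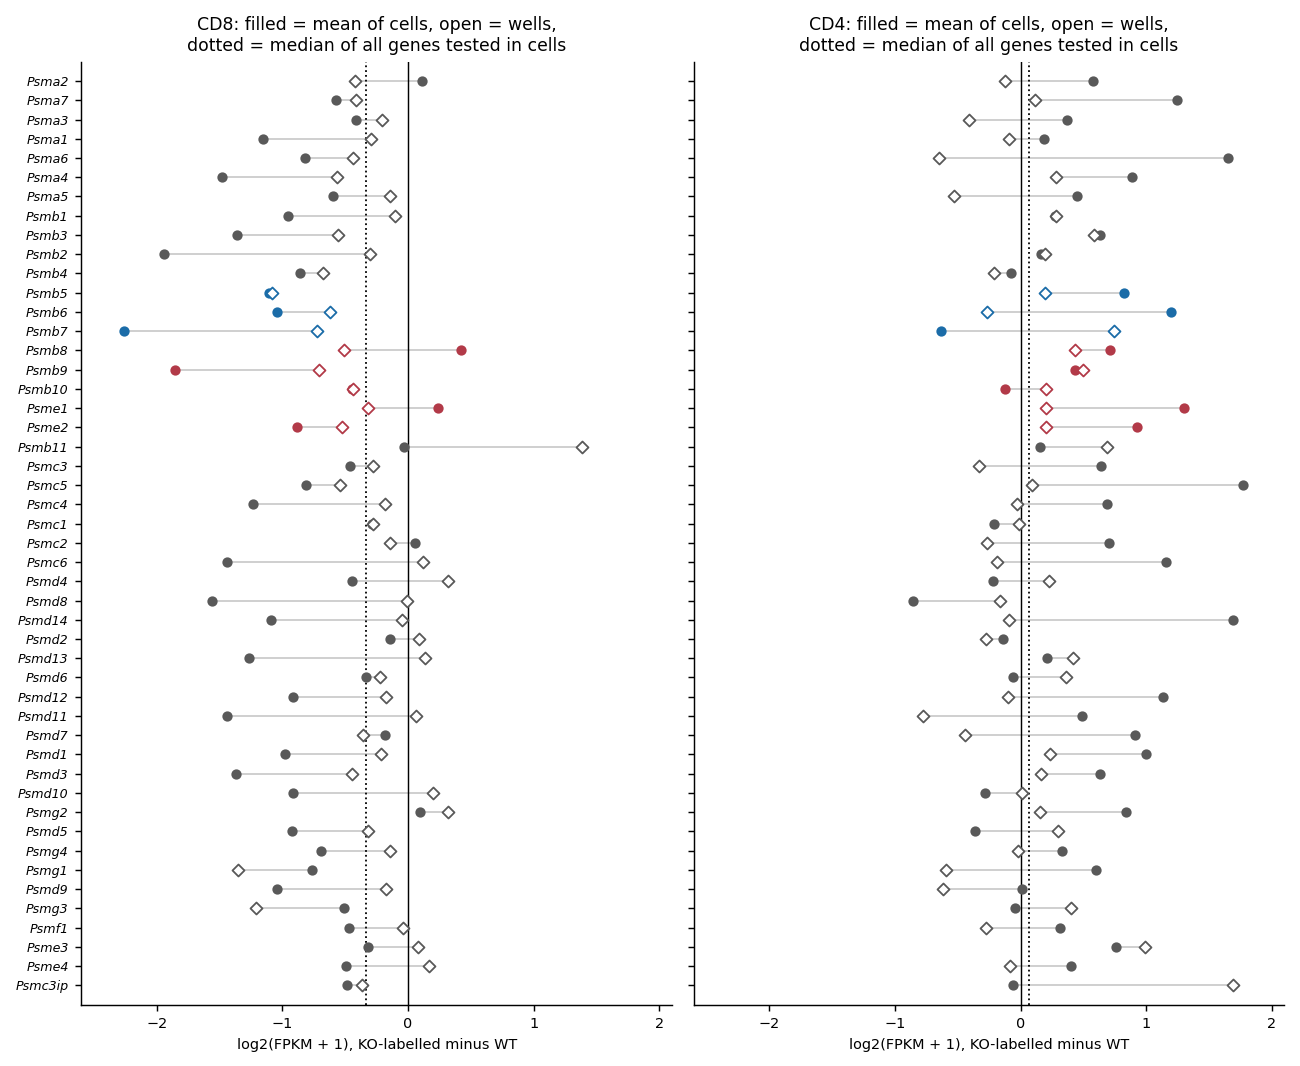
Difference in log2(FPKM + 1), KO-labelled minus WT, of the 48 measured genes in CD8 (left) and CD4 (right), from the mean over kept cells (filled circles) and from the wells (open diamonds), with immunoproteasome and PA28 genes in red, standard catalytic genes in blue and others in grey. In CD8 most circles lie left of 0 and in CD4 most lie right of it, and the diamonds mostly lie nearer to 0 than the circles.

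CD4 and CD8 plates were compared within each genotype. Among WT cells, 47 of 48 measured genes were lower in CD4, with a median of -1.45, against 84.1% of all genes lower and a median of -0.53. A difference of -1 or less was found for 36 of 48 (27% of all genes) and one of 1 or more for 0 of 48 (1.65% of all genes). The WT wells gave a median of 0.04, with 1 of 48 at 1 or more (13.4% of all genes) and 2 at -1 or less (12.7% of all genes). The 3 standard catalytic genes were lower in CD4 in the wells as well, at -0.62 for Psmb5, -0.14 for Psmb6 and -0.98 for Psmb7. Past 1 in the wells were Psmb11 (1.18), Psmc3ip (-2.75) and the chaperone Psmd5 (-1.10). The lowest in cells were Psma4 (-3.44) and Psmd14 (-3.06), at -0.21 and 0.09 in the wells, and the highest outside the catalytic and PA28 genes were Psmb11 (0.02) and Psmg3, a chaperone (-0.42). The immunoproteasome and PA28 genes were nearer to 0, at a median of -0.75, than the standard catalytic genes at -1.79 and the cap at -1.77. Psmb8 differed by -0.19. With cells weighted to equal numbers of detected genes these medians were 1.10, 0.51 and 0.030, and without cycling cells 0.68, 0.14 and -0.20, so the lower values in CD4 moved with both.

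Among KO-labelled cells the lineages lay closer. A higher value in CD4 was found for 18 of 48 genes, near the 37.3% of all genes, with a median of -0.18 against -0.12 over all genes, 1 at 1 or more (2.85% of all genes) and 4 at -1 or less (6.54% of all genes). The 1 gene past 1 was Psmb9, at 1.54. The 4 were the cap genes Psmc1 (-2.11), Psmd2 (-1.35) and Psmd6 (-1.11) and the alpha subunit Psma4 (-1.08), at 0.23, -0.02, -0.04 and 0.64 in the wells. The highest of the genes outside the catalytic and PA28 groups were Psmd12 (0.34) and Psmc6 (0.83), also of the cap. In the KO-labelled wells, 37 of 48 were higher in CD4 (49.6% of all genes), with a median of 0.20 against 0.00 over all genes. There, 2 were at 1 or more (11.7% of all genes), Psmg3 at 1.05 and Psmg1 at 1.04, and 0 at -1 or less (12.5% of all genes). The 5 immunoproteasome and PA28 genes were all higher in CD4 there and by similar amounts, with Psmb8 at 0.82, Psmb9 at 0.68, Psmb10 at 0.68, Psme1 at 0.68 and Psme2 at 0.64. The standard catalytic genes were higher in that well by 0.21 to 0.66.

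Genes that act with the proteasome or induce it were read from 2 further lists. Of 25 proteasome-associated and ubiquitin genes, 22 were measured. In CD8 cells 8 of these were higher and 14 lower under the KO label, with a median of -0.18, when 75.7% of all genes were lower. The split in the wells was 14 higher to 8 lower (median 0.11), when 51.4% of all genes were higher. In cells they ranged from Uchl5, a deubiquitinase of the cap (-1.43), to Ubb, a polyubiquitin gene (1.39). In CD4 cells the median was 0.33 (16 higher, 6 lower), when 58.8% of all genes were higher. The CD4 wells gave a median of 0.15 (13 higher, 9 lower), when 47.6% of all genes were higher. Values in CD4 cells ranged from Ube3c, a ubiquitin ligase (-0.56), to Shfm1, a small cap subunit outside the Psm names (2.72). Of the WT CD4 cells 39.2% had Shfm1, against 72.6% on the KO-labelled plate, with 366.9 and 590 FPKM in the wells.

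The list of inducers and class I pathway genes held 18 genes, all measured. In CD8 cells 7 were higher and 11 lower under the KO label, with a median of -0.20 in cells and -0.10 in wells, against medians of -0.34 and 0.03 and 75.7% and 47.2% lower over all genes. They ranged from Tap1 (-1.89), the peptide transporter that overlaps Psmb9, to Ifngr1 (1.93), a chain of the interferon-gamma receptor, at -0.28 and 1.27 in the wells. In CD4 cells the list was higher for 14 genes and lower for 4, at a median of 0.56, against 58.8% of all genes higher and a median of 0.07. In the wells 16 were higher and 2 lower, at a median of 0.41, against 47.6% of all genes higher and a median of -0.01. Values in cells ranged from Jak1, a kinase of the interferon-gamma receptor (-0.89), to Tap1 (1.51). Irf1, an interferon-induced transcription factor that acts on immunoproteasome genes and was picked after its values were seen, had 424, 566, 1076 and 2516 FPKM in the wells. Mean FPKM of Irf1 in cells was 259.4, 303.8, 546 and 1013, the same plate order. Its detection did not follow that order, at 58.3%, 56.3%, 53.2% and 68.5% of cells. On the log2 scale its difference under the KO label was -0.14 in CD8 cells and 1.42 in CD4 cells.

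Promoter sequence was compared between the roles because interferon-driven and stress-driven control of these genes are known to use different motifs. RefSeq windows of GRCm38.p6, 250 bases before to 50 after the start, were found for 41 of the 49 genes. They were searched on both strands for 3 motifs that do not contain one another. The ISRE core (GAAANNGAAA), a motif of interferon regulatory factors, was in 12.2% of the 41 windows and in 3.99% of those of 27025 genes. The 5 members with it were Psmb3, Psmd4, Psmd9, Psme1 and Psmg4, of which only Psme1 is an immunoproteasome or PA28 gene. The GAS motif (TTCNNNGAA), bound by STAT factors, was in 7.32% and 9.55%. The antioxidant response element core (TGACNNNGC), a motif of Nrf1 and Nrf2, was in 14.6% and 13.99%. A match is a description of letters and no evidence of binding.

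Both standard catalytic genes with a window, Psmb5 and Psmb6, held the antioxidant response element core, 47 and 9 bases before the start. None of the 5 immunoproteasome and PA28 genes did. Of all genes with a window, 13.99% held this core, 9.55% the GAS motif and 3.99% the ISRE core. So few genes cannot tell the roles apart. Of the 5 immunoproteasome and PA28 genes, Psmb8 held a GAS motif 97 bases before its RefSeq start. Psme1 held an ISRE core 10 bases after its start. These 4 are shown because they are the matches among the 8 genes compared above, 5′ to 3′ along the gene with the motif in capitals. The Psmb5 stretch is chr14:54618023-54618245 on the minus strand, that of Psmb6 is chr11:70525107-70525356 on the plus strand. Only 30 bases are shown for Psmb8 (chr17:34198088-34198117, plus strand) and Psme1 (chr14:55578493-55578522, plus strand), since GENCODE annotates exons there.
Psmb5: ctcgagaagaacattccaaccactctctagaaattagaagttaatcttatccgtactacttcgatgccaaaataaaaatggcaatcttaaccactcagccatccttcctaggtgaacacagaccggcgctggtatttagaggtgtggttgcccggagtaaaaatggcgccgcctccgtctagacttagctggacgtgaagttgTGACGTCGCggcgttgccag
Psmb6: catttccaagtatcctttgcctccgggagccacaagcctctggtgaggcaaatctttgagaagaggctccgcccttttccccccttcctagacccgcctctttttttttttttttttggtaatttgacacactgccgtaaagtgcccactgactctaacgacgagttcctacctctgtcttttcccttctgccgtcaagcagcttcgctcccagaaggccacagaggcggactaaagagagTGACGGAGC
Psmb8: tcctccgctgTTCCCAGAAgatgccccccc
Psme1: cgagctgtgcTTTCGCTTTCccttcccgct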

How the data were processed

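Smart-seq2 libraries of 94 single cells and 1 population well from each of 4 plates were analysed. The deposited table holds FPKM values to which the authors applied TMM scaling, and the submitters' processing notes name RSEM, Bowtie and mm10 without versions. The annotation is not given in the sources used here, and read depth per library was not estimated, so genes detected stand in for it. Columns were matched to samples by title, with 0 unmatched, and 0 libraries held the same values as another. From these values detection (FPKM above 1), means of log2(FPKM + 1) with a pseudocount of 1, differences between plates, shares of summed FPKM and exact Clopper-Pearson 95% intervals were computed with Python 3.11.15, pandas 2.3.3, numpy 2.4.6 and scipy 1.17.1. The calculation of differences was tested on simulated data. On this log scale a difference mixes the share of cells that have a transcript with its level, and it understates changes of low genes.

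The members follow from their symbols. The members, gene lists and comparisons were chosen with earlier results of these data known. Named were the 8 catalytic and PA28 genes on every plate, the 3 highest and 3 lowest other members in each genotype comparison, 2 and 2 in each lineage comparison, and the highest and lowest gene of each further list in each genotype comparison. Irf1 was added after its values were seen. Gene positions come from GENCODE M21 (GRCm38) and promoter windows from RefSeq (GRCm38.p6). Alternatives were another pseudocount (0.1 and 10), other cell filters, the log2 of the mean FPKM, weighting to equal genes detected in bins of 500, leaving out cycling cells, no filter on low genes, centring on all genes, and a detection threshold of 5 FPKM. Leaving out cells with at least 2 melanoma genes or at least 3 dendritic or macrophage genes, and cells above 4000 genes, was added after seeing the data.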

Additional observations from a re-analysis of the deposited data

Results flagged for a closer look

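Genotype differences pointed in opposite directions in CD4 and CD8 cells for several groups. The difference in CD4 minus that in CD8, on the log2(FPKM + 1) scale, was 1.15 for the median of the immunoproteasome and PA28 genes, 1.93 for the standard catalytic genes, 1.38 for the noncatalytic beta subunits and 1.29 for all measured proteasome genes. Among single genes it was 2.29 for Psmb9, 1.81 for Psme2 and 1.93 for Psmb5. These were noted because cells and wells both gave a higher value in CD4 and a lower one in CD8 under the KO label. Without cycling cells the CD8 medians of the immunoproteasome and PA28 genes and of the standard catalytic genes were 0.61 and 0.57, no longer opposite to CD4. The difference itself was not tested, since each group is 1 plate.

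Psmb8 was above FPKM 1 in 8.33% of the 72 cells that the filter on detected genes left out (6 cells, exact interval 3.12% to 17.3%). It was noted because these cells are outside the main comparisons and the share is above the 4.17% that 3 cells of the total make up. The interval includes that limit. The limit is a bound for a gene seen in no cell and not an expected share, so no excess can be judged against it.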

How the results depend on the processing

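Each group is 1 plate, so no replicate could be left out. No paired analysis was possible because no test was run and the numbers of cells mark no shared source. A difference was taken to move where it changed by over 1.5-fold. An immunoproteasome share was taken to move where its odds, the share over the remainder, changed by over 1.5-fold. Of the alternative values for the genotype medians and the shares, 87 stayed within that limit and 22 moved, some of them across 0. A further 3 went from a difference past 1 to the other sign. With the lineage medians and single genes included, the sign changed in that way for 10 values with weighting. It also did for 7 without cycling cells and 4 in cells of at most 4000 genes. Some of the 87 values that stayed could not have moved. Taking away the filter on low genes left the same genes in these groups, and centring shifted each median by less than the limit. Among the 22 that moved were shares of single pairs of catalytic genes, which are other quantities than the summed share. Leaving out cells with melanoma genes, or with dendritic or macrophage genes, moved none of the 48 values recomputed for each. The first took out 4, 0, 0 and 2 cells and the second 3, 1, 1 and 3. So few cells could hardly move a mean past the limit, and the wells were not part of this check.

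In CD8 cells the standard catalytic median (-1.10) was 0.26 with weighting to equal genes detected, 0.57 without cycling cells, 0.42 in cells of at most 4000 genes and -1.87 in cells of at least 2000 genes. Psmb5 was 0.39, 1.10 and 0.70 and Psmb6 was 0.26, 0.57 and 0.42 under the first 3 of these. The cap median (-0.92) was -0.31 over all 94 cells, -0.18 from the log2 of mean FPKM, 0.23 with weighting, 0.79 without cycling cells and 0.40 in cells of at most 4000 genes. The immunoproteasome and PA28 median (-0.44) was 0.61 without cycling cells and 0.62 in cells of at most 4000 genes. In CD4 cells that median (0.71) was -0.023 over all 94 cells, and the standard catalytic median (0.82) was -0.37 in cells of at least 2000 genes and 0.22 from the log2 of mean FPKM.

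In the WT lineage comparison, weighting gave 0.51 for the standard catalytic median, 0.030 for the cap, 1.25 for Psme1, 0.11 for Psme2, 0.51 for Psmb5, 0.83 for Psmb6 and 0.32 for Psmb7. Without cycling cells the values were 0.14 for the standard catalytic median, 0.22 for Psme1, 0.14 for Psmb5 and 0.97 for Psmb7, and Psmb7 was 0.45 in cells of at most 4000 genes. The immunoproteasome share moved for WT CD8 without cycling cells (78.9%). By pair it moved to 79.1%, 57.03% and 58.1% in WT CD8, 83.1% and 51.3% in KO-labelled CD8, 86.3%, 55.5% and 60.7% in WT CD4, and 86.1% and 55.1% in KO-labelled CD4 cells. The cause was not tested. The number of cells with many detected genes, 4 to 26 per plate at 4000 or more, limits the weighted values, and 66 of 72 WT CD8 cells entered the weighted genotype comparison.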
